A study of Mus musculus with 9 samples.

Results

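The genes described here are 10 mouse genes whose mRNAs report signalling through the kinase ERK in melanoma: the phosphatase genes Dusp4, Dusp5 and Dusp6, the Sprouty genes Spry1, Spry2 and Spry4, the Sprouty-related genes Spred1 and Spred2, and the ETS transcription factor genes Etv4 and Etv5. They were listed by name, found through their Ensembl identifiers, and make up 10 of the 22396 genes with deposited counts. B16F10 is a mouse melanoma cell line. The cells carried a lentiviral FLAG-tagged RIG-I, a cytosolic sensor of RNA, together with a control shRNA (shCtr) or 1 of 2 different shRNAs against OSGEP (shOSGEP#1 and shOSGEP#2), the enzyme that places the modification t6A on tRNAs reading ANN codons. Apart from the shRNA, cells of the 3 groups shared line, medium and tagged construct. RNA recovered on anti-FLAG beads from 3 independent experiments per group was depleted of ribosomal RNA and sequenced, giving 9 libraries. Levels are given as CPM, counts scaled to the library total, and so describe how much of the RNA recovered on the beads a gene makes up. The 9 libraries include no input RNA and no pull-down without the tag, so RNA held by the beads alone is not separated. RNA of whole cells was not used here, and from these libraries alone more mRNA in the cell cannot be told apart from more recovery by RIG-I. A stable shRNA pool is also a limit of the model, since each group holds a single hairpin and the control hairpin does not control for off-target effects of either.

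ERK is the last kinase of the cascade that runs from receptor tyrosine kinases through Ras, Raf and MEK, and activating mutations in this cascade are a common driver of melanoma. Active ERK induces a set of immediate and delayed genes whose products act back on the cascade: dual-specificity phosphatases remove phosphate from ERK itself, while Sprouty and Spred proteins act upstream on receptors, Ras and Raf. ETS factors of the PEA3 family, to which Etv4 and Etv5 belong, are induced with them and carry the signal on to further genes. The mRNAs of these genes are widely read as a measure of pathway output.

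Total counts were 40333037, 47750758 and 41805753 in shCtr replicates 1, 2 and 3, and 34551436, 50224299 and 30697653 in shOSGEP#1. In shOSGEP#2, replicates 1 and 3 held 25460689 and 14914731 counts. The library of shOSGEP#2 replicate 2 stood apart, with 568995 counts on 4196 genes against at least 11733 genes in each of the others. It was left out of the tests that follow, its values are given apart, and each test was repeated with it. The share of mitochondrially encoded genes was 2.96% in shOSGEP#1 replicate 3 and lay between 0.147% and 0.445% in the other 7 deep libraries.

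The labelled cell type was checked against the melanocytic genes Mitf, Sox10, Pmel, Mlana, Dct, Tyr and Tyrp1. All 7 had counts in each of the 8 deep libraries, and Tyrp1 was the most abundant of them in each. Their summed level was 6336, 6039 and 8473 CPM in shCtr replicates 1, 2 and 3, 6288, 7565 and 6840 CPM in shOSGEP#1, and 2617 and 3374 CPM in shOSGEP#2 replicates 1 and 3. Markers of other cell types were scarce in the 8 deep libraries, with summed levels of at most 4.79 CPM for leukocytes, 2.18 CPM for endothelium and 1.08 CPM for epithelium, and with no count in any library for Itgam, Krt5 and Lum. The fibroblast genes summed to between 2.05 and 6.55 CPM in shCtr and shOSGEP#1 and to 12.1 and 38.2 CPM in shOSGEP#2 replicates 1 and 3, where Col1a2 was the most abundant.

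The shRNA target was lower in both knockdown groups. Osgep was at 19.1, 19.9 and 15.5 CPM in shCtr replicates 1, 2 and 3, at 3.76, 1.15 and 1.53 CPM in shOSGEP#1, and at 0.0786 and 2.88 CPM in shOSGEP#2 replicates 1 and 3. Every knockdown library lay below every control library. The log2 fold change against shCtr was -3.10 (SE 0.73, adjusted p = 0.0128, edgeR quasi-likelihood test with Benjamini-Hochberg adjustment) for shOSGEP#1 and -3.84 (SE 0.93, adjusted p = 0.0150) for shOSGEP#2, which did not pass the threshold of an adjusted p under 0.01 used throughout. Ddx58, which encodes RIG-I, had log2 fold changes of 0.26 (adjusted p = 0.427) and 0.86 (adjusted p = 0.0239) in the same test. Its mean level was 214 CPM in shCtr, 258 CPM in shOSGEP#1 and 415 CPM in the deep shOSGEP#2 libraries, both of which lay above all others. Whether these counts came from the construct or from the cell's own gene was not tested.

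On a scale that allows levels of different genes to be set side by side, CPM per kilobase of the longest complete coding transcript, Dusp4 was the most abundant member in control cells, at 118 ± 13.7 (SD, n = 3). Dusp6 followed at 54.3 ± 22.8, then Spred1 at 27.7 ± 6.14, Spred2 at 16.1 ± 0.715 and Spry2 at 9.73 ± 0.310. Etv5 at 1.78 ± 1.01, Spry1 at 1.02 ± 0.177, Spry4 at 0.749 ± 0.336 and Etv4 at 0.360 ± 0.138 CPM per kilobase were lower. Of the neighbours in this order, Dusp6 and Spred1, and each adjacent pair from Etv5 down to Etv4, had overlapping ranges of mean ± 1 SD. The median over the 12593 tested genes with a length was 9.97 CPM per kilobase in shCtr. In both knockdown groups Dusp6 took the top place, at 131 ± 16 CPM per kilobase in shOSGEP#1 (SD, n = 3) and 110 ± 14.9 in shOSGEP#2 (SD, n = 2), while Dusp4 stood at 70.2 ± 21.9 and 23.6 ± 10.2.

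Of the 10 members, 9 passed the filter on low counts. Dusp5, which encodes a nuclear phosphatase specific for ERK, did not: it had between 0 and 11 counts per library, at most 0.263 CPM, and no fold change is given for it.

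The comparison of shOSGEP#1 with shCtr asks which RIG-I-recovered mRNAs differ once OSGEP is depleted with this hairpin. Among the 9 tested members, 4 rose (Etv5, Spry4, Spry1 and Dusp6), beside 5.00% of all 12744 tested genes that rose. No member fell in the edgeR test or in DESeq2, beside 4.67% of all genes, although 1 member, Dusp4, was lower at an unadjusted p under 0.05. The CPM of the groups did not overlap for 7 of the 9 members, beside 45.3% of all genes. The median log2 fold change of the 9 members was 0.79, the value of Etv4, whose SE was 1.02, beside 0.00 over all genes. The list was chosen with earlier results of these data known. Here and in the other comparisons, members set beside all genes are therefore a description and not a test. The members are also not independent: Dusp6 had a Pearson r of 0.96 with Spry4 and with Etv5, and Spry4 of 0.99 with Etv5, over the 8 libraries.

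The comparison of shOSGEP#2 with shCtr asks the same of the other hairpin. Here 1 member rose (Spry1), beside 5.66% of all genes, and 2 fell (Dusp4 and Spred2), beside 3.89%. The groups did not overlap for 7 of the 9 members, beside 52.3% of all genes. The median log2 fold change of the members was 0.34, beside -0.06 over all genes. The comparisons share their control libraries. Among all genes, 721 rose and 496 fell with TMM scaling, against 901 and 375 with library totals alone.

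The direct comparison of shOSGEP#2 with shOSGEP#1 asks where the hairpins differ. The 3 members that passed the test, Dusp4, Spred1 and Spred2, were lower in shOSGEP#2, beside 4.56% of all genes that were lower and 6.23% that were higher. Among members, 1 was higher at an unadjusted p under 0.05 (Spry1), and DESeq2 called it (adjusted p = 0.00248). The groups did not overlap for 4 of the 9 members, beside 49.6% of all genes, and the members' median log2 fold change was -0.64, beside -0.04.

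With shOSGEP#2 replicate 2 added, edgeR called 0% of 12337 genes in the comparison of shOSGEP#1 with shCtr, 0% in that of shOSGEP#2 with shCtr and 0% in that of shOSGEP#2 with shOSGEP#1, and so no member. The genes with an unadjusted p under 0.05 numbered 620, 1240 and 1325. For the members called on 8 libraries, log2 fold changes from these 9 were as follows, with SE in brackets. In shOSGEP#1 they were 1.24 (0.68) for Dusp6, 1.55 (0.61) for Spry1, 1.76 (0.85) for Spry4 and 1.97 (1.00) for Etv5. In shOSGEP#2 against shCtr they were 3.42 (0.66) for Spry1, -2.97 (1.10) for Dusp4 and -1.46 (1.00) for Spred2. Between the hairpins they were -2.19 (1.07) for Dusp4, -1.11 (0.31) for Spred1 and -1.37 (1.00) for Spred2. DESeq2 on the same 9 libraries called 122, 350 and 408 genes, among them Spry1 for shOSGEP#2 against shCtr (adjusted p = 1.72e-06) and Spred1 between the hairpins (adjusted p = 0.00874). The edgeR calls of members given here are those of the fit on the 8 deep libraries.

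**Figure D1:**
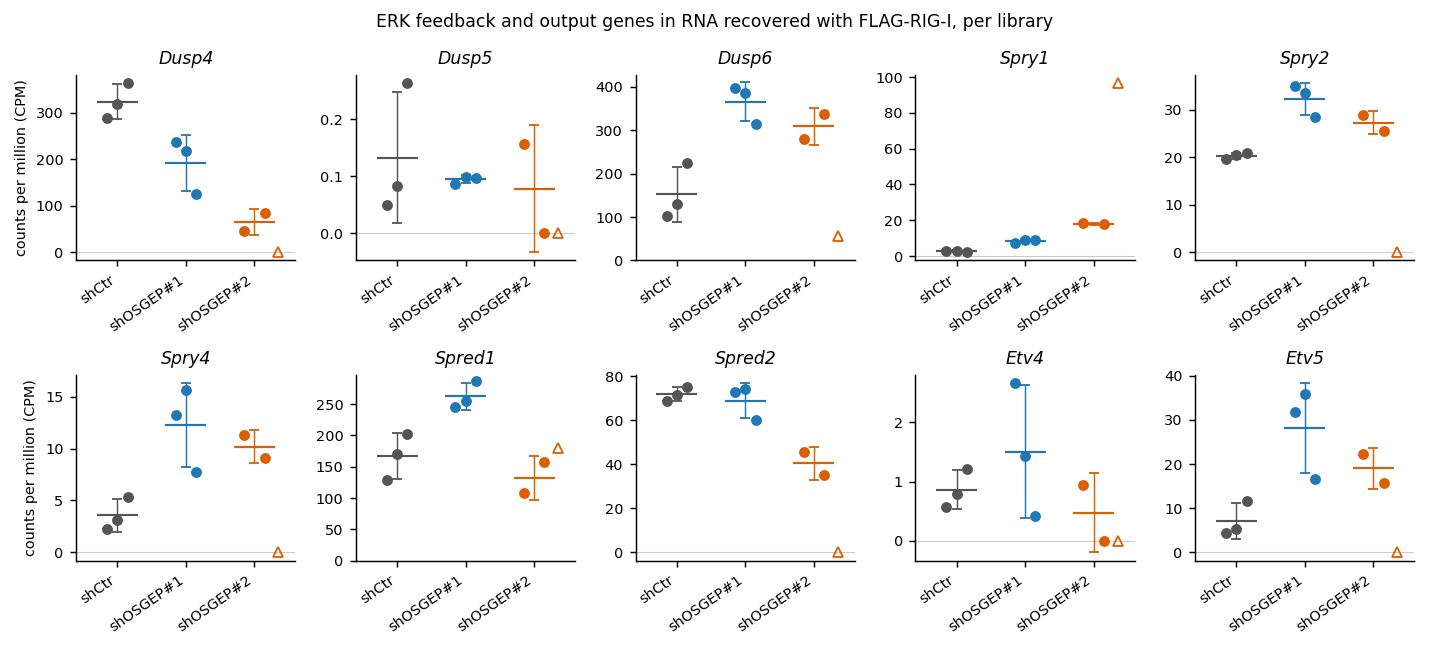
CPM (vertical axis, linear, own scale per gene) of the 10 members in each library by group. Filled circles are the 8 deep libraries, horizontal lines their group means, error bars ± 1 SD (n = 3, 3 and 2), and open triangles shOSGEP#2 replicate 2. Dusp4 lies at 289 to 364 CPM in shCtr and at 44.8 and 84.4 CPM in shOSGEP#2, while Spry1 lies at 2.27 to 3.12 CPM in shCtr and at 17.7 and 18.4 CPM in shOSGEP#2.

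Dusp6 (ENSMUSG00000019960) encodes the cytoplasmic phosphatase that acts on ERK, and its mRNA is a standard readout of the pathway. It stood at 102, 130 and 224 CPM in shCtr replicates 1, 2 and 3, at 397, 384 and 314 CPM in shOSGEP#1, and at 279 and 338 CPM in shOSGEP#2 replicates 1 and 3. Every deep knockdown library was above every control library, and shCtr replicate 3 was the highest control by a wide margin. The group means were 152 ± 63.6 (SD, n = 3), 365 ± 44.8 (SD, n = 3) and 308 ± 41.8 CPM (SD, n = 2). The rise in shOSGEP#1 was a log2 fold change of 1.25 (SE 0.25, adjusted p = 0.00620, edgeR with Benjamini-Hochberg adjustment); in shOSGEP#2 the log2 fold change was 0.92 (SE 0.28, adjusted p = 0.0365), not past the threshold. The call for shOSGEP#1 was lost without shCtr replicate 1 or 2 (adjusted p = 0.0235 and 0.0374, edgeR) and without shOSGEP#1 replicate 1, 2 or 3 (adjusted p = 0.0166, 0.0245 and 0.0122), with log2 fold changes from 1.03 to 1.65 over all such fits. Without shCtr replicate 3 the difference in shOSGEP#2 passed (log2 fold change 1.32, adjusted p = 0.00274, edgeR), as it did in DESeq2 on the 8 libraries (adjusted p = 0.00558). Between the hairpins Dusp6 overlapped, with a log2 fold change of -0.33 (SE 0.28, adjusted p = 0.425).

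Dusp4 (ENSMUSG00000031530) encodes a nuclear phosphatase of ERK and other MAP kinases. It stood at 289, 319 and 364 CPM in shCtr replicates 1, 2 and 3, at 236, 217 and 124 CPM in shOSGEP#1, and at 44.8 and 84.4 CPM in shOSGEP#2 replicates 1 and 3. The groups formed separate ranges in the order shCtr, shOSGEP#1, shOSGEP#2, with no overlap between any pair of them, and shOSGEP#1 replicate 3 was the lowest of its group. In shOSGEP#2 Dusp4 fell by 2.43 on the log2 scale against shCtr (SE 0.32, adjusted p = 0.000571, edgeR with Benjamini-Hochberg adjustment), and this call held in each of the 8 fits that left out a library (log2 fold changes from -2.92 to -2.07). In shOSGEP#1 the log2 fold change was -0.77 (SE 0.26, adjusted p = 0.0579), which did not pass. The difference between the hairpins was itself tested, at -1.67 (SE 0.31, adjusted p = 0.00331), and no longer passed without shOSGEP#1 replicate 1 or 2 or shOSGEP#2 replicate 1 (adjusted p = 0.0104, 0.0124 and 0.0222, edgeR), or when only these groups were fitted (0.0126).

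The counts of the phosphatase pair can be set against each other within a library, where depth cancels. The ratio of Dusp6 to Dusp4 counts was 0.354, 0.407 and 0.615 in shCtr replicates 1, 2 and 3, 1.68, 1.77 and 2.54 in shOSGEP#1, and 6.23 and 4.00 in shOSGEP#2 replicates 1 and 3. Dusp4 had more counts in every control library and Dusp6 had more in every deep knockdown library, and the ranges of the 3 groups did not overlap.

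Sprouty proteins are membrane-associated inhibitors that limit activation of Ras and Raf downstream of growth factor receptors. Spry1 (ENSMUSG00000037211) was at 3.12, 3.12 and 2.27 CPM in shCtr replicates 1, 2 and 3, at 7.53, 9.0 and 8.89 CPM in shOSGEP#1, and at 18.4 and 17.7 CPM in shOSGEP#2 replicates 1 and 3. The 3 groups formed separate ranges, narrow within each group, with shOSGEP#2 the highest. Spry1 rose in shOSGEP#1 by a log2 fold change of 1.56 (SE 0.25, adjusted p = 0.00193, edgeR with Benjamini-Hochberg adjustment) and in shOSGEP#2 by 2.57 (SE 0.27, adjusted p = 0.000206). It was the member that passed in both comparisons with shCtr. The call in shOSGEP#2 held in each of the 8 fits that left out a library, and that in shOSGEP#1 was narrowly lost without shCtr replicate 2 (adjusted p = 0.0114, edgeR) and without shOSGEP#1 replicate 2 (adjusted p = 0.0115). The log2 fold change between the hairpins was 1.01 (SE 0.27, adjusted p = 0.0200) and did not pass.

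Spry4 (ENSMUSG00000024427), an inhibitor of the same family, was at 2.23, 3.12 and 5.33 CPM in shCtr replicates 1, 2 and 3, at 13.3, 15.7 and 7.79 CPM in shOSGEP#1, and at 11.3 and 9.05 CPM in shOSGEP#2 replicates 1 and 3. All deep knockdown libraries were above all controls, but shCtr replicate 3 and shOSGEP#1 replicate 3 came close to each other. The rise in shOSGEP#1 was a log2 fold change of 1.77 (SE 0.38, adjusted p = 0.00756, edgeR with Benjamini-Hochberg adjustment), and in shOSGEP#2 the value was 1.42 (SE 0.41, adjusted p = 0.0300), past the threshold in DESeq2 alone (adjusted p = 0.00502). The call in shOSGEP#1 was lost without shCtr replicate 1 or 2 (adjusted p = 0.0342 and 0.0423, edgeR) and without shOSGEP#1 replicate 1 or 2 (adjusted p = 0.0204 and 0.0392).

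Spry2 (ENSMUSG00000022114), the most abundant Sprouty mRNA here by CPM per kilobase, was at 19.6, 20.5 and 20.8 CPM in shCtr replicates 1, 2 and 3, at 35, 33.5 and 28.6 CPM in shOSGEP#1, and at 29.0 and 25.6 CPM in shOSGEP#2 replicates 1 and 3. Controls were tightly grouped and lay below all deep knockdown libraries. The log2 fold changes against shCtr were 0.66 (SE 0.16, adjusted p = 0.0161, edgeR with Benjamini-Hochberg adjustment) in shOSGEP#1 and 0.34 (SE 0.18, adjusted p = 0.213) in shOSGEP#2, neither past the threshold. DESeq2 called the value in shOSGEP#1 (adjusted p = 0.00118).

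Spred proteins bind Ras pathway kinases at the membrane and, with neurofibromin, restrain Ras. Spred1 (ENSMUSG00000027351) was at 128, 170 and 202 CPM in shCtr replicates 1, 2 and 3, at 245, 255 and 287 CPM in shOSGEP#1, and at 108 and 157 CPM in shOSGEP#2 replicates 1 and 3. The shOSGEP#1 libraries were above all others, and those of shOSGEP#2 overlapped with the controls. Against shCtr the log2 fold changes were 0.64 (SE 0.19, adjusted p = 0.0361, edgeR with Benjamini-Hochberg adjustment) in shOSGEP#1 and -0.44 (SE 0.22, adjusted p = 0.177) in shOSGEP#2, of which DESeq2 called that in shOSGEP#1 (adjusted p = 0.00909). The difference between the hairpins passed, at -1.07 (SE 0.22, adjusted p = 0.00610). It no longer passed without shOSGEP#1 replicate 1, 2 or 3 (adjusted p = 0.0126, 0.0166 and 0.0160, edgeR), without shOSGEP#2 replicate 1 or 3 (0.0400 and 0.0107) or without shCtr replicate 2 (0.0130), or when only these groups were fitted (0.0109).

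Spred2 (ENSMUSG00000045671), the paralogue of Spred1, was at 68.8, 71.4 and 75.2 CPM in shCtr replicates 1, 2 and 3, at 72.6, 74.2 and 59.9 CPM in shOSGEP#1, and at 45.7 and 35.1 CPM in shOSGEP#2 replicates 1 and 3. Both deep shOSGEP#2 libraries were below all others, while shOSGEP#1 overlapped with shCtr. Spred2 fell by 0.92 on the log2 scale in shOSGEP#2 (SE 0.19, adjusted p = 0.00584, edgeR with Benjamini-Hochberg adjustment), and its log2 fold change in shOSGEP#1 was -0.07 (SE 0.16, adjusted p = 0.791). Between the hairpins the log2 fold change was -0.85 (SE 0.18, adjusted p = 0.00794). The fall against shCtr was lost without shCtr replicate 1, 2 or 3 (adjusted p = 0.0173, 0.0229 and 0.0187, edgeR), without shOSGEP#1 replicate 2 (0.0111), without shOSGEP#2 replicate 3 (0.0470) and when only these groups were fitted (0.0116). The difference between the hairpins was lost without shCtr replicate 1, 2 or 3 (adjusted p = 0.0159, 0.0185 and 0.0120, edgeR), without shOSGEP#1 replicate 1 or 2 (0.0246 and 0.0291), without shOSGEP#2 replicate 3 (0.0646), with library totals in place of TMM factors (0.0108) and when only these groups were fitted (0.0327).

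Etv5 (ENSMUSG00000013089) encodes an ETS factor induced by ERK and by fibroblast growth factor signalling. It was at 4.26, 5.26 and 11.6 CPM in shCtr replicates 1, 2 and 3, at 31.9, 35.8 and 16.5 CPM in shOSGEP#1, and at 22.2 and 15.8 CPM in shOSGEP#2 replicates 1 and 3. All deep knockdown libraries were above all controls; as for Dusp6 and Spry4, shCtr replicate 3 was the highest control and shOSGEP#1 replicate 3 the lowest of its group. Etv5 had the largest log2 fold change of the members in shOSGEP#1, 1.98 (SE 0.40, adjusted p = 0.00609, edgeR with Benjamini-Hochberg adjustment). In shOSGEP#2 the value was 1.34 (SE 0.43, adjusted p = 0.0480), which passed only when shCtr replicate 3 was left out (1.91, adjusted p = 0.00906) or with DESeq2 (adjusted p = 0.00961). The call in shOSGEP#1 was lost without shCtr replicate 1 or 2 (adjusted p = 0.0274 and 0.0354, edgeR) and without shOSGEP#1 replicate 1 or 2 (0.0158 and 0.0276).

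Etv4 (ENSMUSG00000017724), a factor of the same family, was low, with counts of 23, 38 and 51 for shCtr replicates 1, 2 and 3, 92, 72 and 13 for shOSGEP#1, and 24 and 0 for shOSGEP#2 replicates 1 and 3. The count of 0 lies below the floor of 3 counts, which is 0.201 CPM in that library. High and low libraries occurred in each knockdown group, and the groups overlapped. The log2 fold changes had standard errors of 1.02 and 1.2 against shCtr, and no difference was detected (adjusted p = 0.632 and 0.638, edgeR with Benjamini-Hochberg adjustment).

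**Figure D2:**
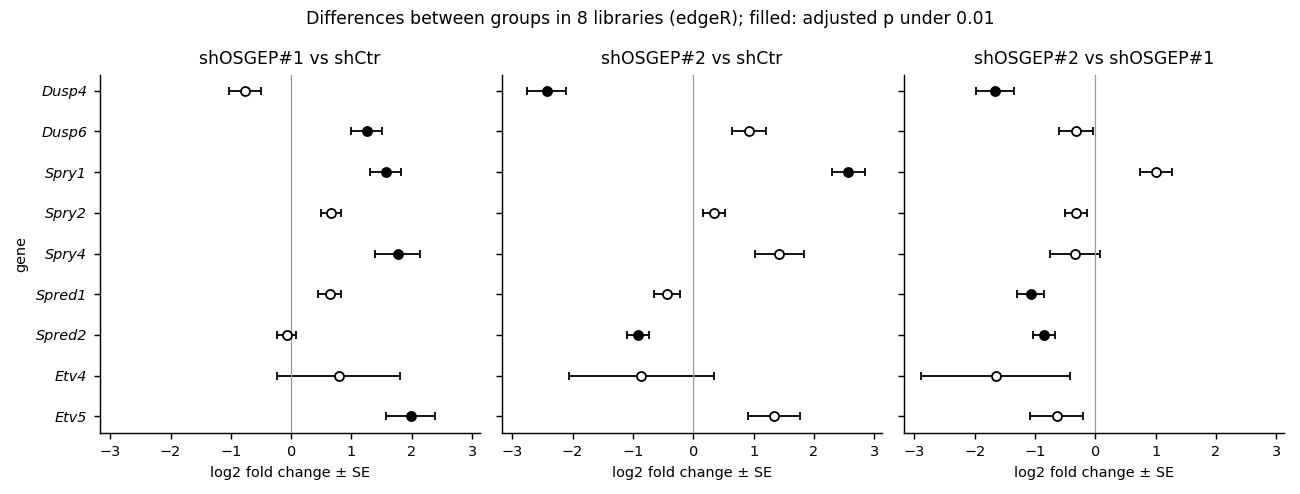
Log2 fold change (horizontal axis) of the 9 tested members in the 3 comparisons of groups, from the edgeR fit on 8 libraries. Points are estimates, bars ± 1 SE, and filled points have an adjusted p under 0.01: Etv5 at 1.98, Spry4 at 1.77, Spry1 at 1.56 and Dusp6 at 1.25 for shOSGEP#1, Spry1 at 2.57, Spred2 at -0.92 and Dusp4 at -2.43 for shOSGEP#2, and Dusp4, Spred1 and Spred2 at -1.67, -1.07 and -0.85 between the hairpins.

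In the shallow library of shOSGEP#2 replicate 2, where 3 counts correspond to 5.27 CPM, 3 of the 10 members had counts. Spred1 had 102 counts (179 CPM, 95% Wilson interval 148 to 218), Spry1 had 55 (96.7 CPM, 74.3 to 126) and Dusp6 had 32 (56.2 CPM, 39.8 to 79.4). From the mean of the other shOSGEP#2 libraries, 75.3, 10.3 and 175 counts would have fallen on these genes. Spry1 was thus above all 8 deep libraries and Dusp6 below all of them, while Spred1 lay inside the range of the controls. Dusp4, at 0 counts where 36.8 would have fallen, and Spred2, at 0 where 23.0 would have, were the largest gaps among the members with no count. Such gaps were general in this library: of 8297 genes with at least 10 counts projected in the same way, 4427 (53.4%) had none.

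Of 15 other outputs of ERK 12 were tested, and in shOSGEP#1 against shCtr 1 rose and 1 fell, beside 5.00% and 4.67% of all genes, with a median log2 fold change of 0.00. Il1rap, a co-receptor for interleukin 1, rose by a log2 fold change of 2.14 (SE 0.29, adjusted p = 0.000901, edgeR with Benjamini-Hochberg adjustment), and Ier3, an immediate early gene, fell by 0.74 (SE 0.17, adjusted p = 0.00942). In shOSGEP#2 against shCtr 2 rose, Il1rap at 1.89 and the urokinase receptor gene Plaur at 1.45, and 1 fell, Phlda1 at -1.30, beside 5.66% and 3.89% of all genes, with 8 of the 12 higher, 4 lower and a median of 0.37. Cyclin D1, a classical ERK target, had log2 fold changes of -0.35 (SE 0.25, adjusted p = 0.358) and 0.31 (SE 0.28, adjusted p = 0.449). Between the hairpins 3 genes of this list were higher in shOSGEP#2, Spred3 at 1.83, Plaur at 1.43 and Ier3 at 1.18, and Phlda1 was lower at -0.99, beside 6.23% and 4.56% of all genes.

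Of the other MAP kinase phosphatases 6 of 7 were tested, with a median log2 fold change of -0.79 in shOSGEP#1, and 2 of the 6 fell, beside 4.67% of all genes. Dusp2 was at -2.18 (SE 0.47, adjusted p = 0.00792, edgeR with Benjamini-Hochberg adjustment) and Dusp8, a phosphatase of stress-activated kinases, at -1.18 (SE 0.22, adjusted p = 0.00423). In shOSGEP#2 against shCtr none of the 6 passed in edgeR, and 3 had an unadjusted p under 0.05, as did 4541 of all 12744 genes. Dusp8 was higher in shOSGEP#2 than in shOSGEP#1, by a log2 fold change of 1.56 (SE 0.24, adjusted p = 0.00120).

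The 18 genes of the Ras-Raf-MEK-ERK core and its adaptors were all tested. In shOSGEP#1 against shCtr 3 of the 18 fell, beside 4.67% of all genes. They included Nras, by 1.42 (SE 0.18, adjusted p = 0.000691, edgeR with Benjamini-Hochberg adjustment), and Mapk3, which encodes ERK1, by 1.01 (SE 0.14, adjusted p = 0.00104). Nras was at 138, 165 and 166 CPM in shCtr replicates 1, 2 and 3, at 68.2, 65.7 and 42.6 CPM in shOSGEP#1, and at 262 and 275 CPM in shOSGEP#2 replicates 1 and 3. The 3 groups formed separate ranges, with the control between the hairpins. Nras was thus higher in shOSGEP#2 than in shOSGEP#1 by a log2 fold change of 2.11 (SE 0.20, adjusted p = 0.000118), and Map2k1, which encodes MEK1, by 0.80 (SE 0.15, adjusted p = 0.00294). These were the 2 of the 18 that were higher, beside 6.23% of all genes. In shOSGEP#2 against shCtr 1 of the 18 rose, the adaptor gene Gab1 at 1.08 (SE 0.15, adjusted p = 0.000839), beside 5.66% of all genes.

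Among 12 other negative regulators of Ras and ERK, all tested, 1 rose and 1 fell in shOSGEP#1, beside 5.00% and 4.67% of all genes. Rasa1, a GTPase-activating protein of Ras, rose by a log2 fold change of 1.05 (SE 0.22, adjusted p = 0.00673, edgeR with Benjamini-Hochberg adjustment). Pea15a, which holds ERK in the cytoplasm, fell by 1.60 (SE 0.19, adjusted p = 0.000407) in shOSGEP#1. In shOSGEP#2 against shCtr none of the 12 passed in edgeR, and 4 had an unadjusted p under 0.05, beside the same 4541 of 12744 genes. Between the hairpins 1 was higher in shOSGEP#2, Pea15a at 1.40, and 1 lower, the ubiquitin ligase gene Cbl at -1.19. Of all genes 6.23% were higher and 4.56% lower.

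Of 13 receptor tyrosine kinases 10 were tested. In shOSGEP#1 against shCtr Axl (1.12) and Igf1r (1.06) rose and Met (-1.98) and Ntrk3 (-2.89) fell on the log2 scale, beside 5.00% and 4.67% of all genes. In shOSGEP#2 against shCtr 5 rose, led by Fgfr3 at 3.46 (SE 0.34, adjusted p = 0.000163, edgeR with Benjamini-Hochberg adjustment), Axl at 2.80 (SE 0.27, adjusted p = 0.000159) and Pdgfrb at 2.10 (SE 0.34, adjusted p = 0.00167), and Met at -1.66 and Ntrk3 at -3.14 fell. All genes that rose or fell in it made up 5.66% and 3.89%. Between the hairpins Fgfr3 and Axl were higher in shOSGEP#2, at 3.22 and 1.68. Axl was at 11.4, 8.42 and 6.82 CPM in shCtr replicates 1, 2 and 3, at 17.0, 24.7 and 16.5 CPM in shOSGEP#1, and at 73.8 and 57.5 CPM in shOSGEP#2 replicates 1 and 3. Met, the receptor of hepatocyte growth factor, was at 53.1, 56.9 and 90.3 CPM in shCtr, at 14.8, 15.9 and 20.5 CPM in shOSGEP#1, and at 20.9 and 24.5 CPM in shOSGEP#2 in the same order. For both receptors no deep knockdown library overlapped with a control. Of 15 ligands 8 were tested, and 1 rose in shOSGEP#1, beside 5.00% of all genes. It was Pdgfa, with a log2 fold change of 1.63 (SE 0.28, adjusted p = 0.00286, edgeR). In shOSGEP#2 against shCtr none of the 8 passed in edgeR, and the value of Pdgfa was 1.22 (SE 0.31, adjusted p = 0.0176).

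The melanocytic genes moved with shOSGEP#2 as well. Of the 7, Tyr fell in shOSGEP#1 (log2 fold change -2.59), beside 4.67% of all genes, and 5 fell in shOSGEP#2 against shCtr, beside 3.89%: Tyr (-3.83), Pmel (-2.06), Dct (-2.00), Mlana (-1.41) and Sox10 (-0.99). Between the hairpins 4 were lower in shOSGEP#2, beside 4.56% of all genes, led by Dct at -2.38. Of 5 fibroblast genes 3 were tested, and 2 were higher in shOSGEP#2, Col1a1 at 2.66 and Col1a2 at 2.85, beside 6.23% of all genes. Col3a1 was at 1.51 (SE 1.43, adjusted p = 0.470, edgeR) and did not pass. Dcn and Lum had too few counts to be tested. The part of these shifts in the lower Dusp4, Spred1 and Spred2 of shOSGEP#2 was not tested.

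The genes whose pattern was most like that of Dusp6 over the 8 deep libraries, among 9541 genes with a mean log2 CPM of at least 3, were Ccdc15 (Pearson r 0.98), Gabpb2 (0.97), Luc7l2 (0.97), Fbxl6 (0.96) and Ctdspl (0.96). These r are descriptions over libraries that share their groups. The 10 members were left out of the ranking.

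In coding sequence the members had a median of 24.5% ANN codons, the codons read by tRNAs that carry t6A, beside a median of 27.0% over 12593 tested genes, whose middle range ran from 23.5% to 29.8%. Etv4 at 17.1% and Etv5 at 18.0% were the lowest members, with 3.56% and 5.12% of tested genes below them. Spred1 at 28.4% was the highest. Dusp4 had 23.9% and Dusp6 26.5%, in coding sequences of 398 and 381 codons.

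RefSeq promoter windows, from 250 bases before to 50 after a transcription start on GRCm38.p6, were at hand for Spred1, Spry1, Dusp6, Spred2, Spry2, Etv5 (with 2 starts) and Dusp5, and not for Dusp4, Spry4 and Etv4. They were searched on both strands for the ETS motif CCGGAAGT, for the shorter ETS core AGGAAG and for the AP-1 motif TGAGTCA, which do not contain each other. Of 32851 windows of the same length, 3.89%, 35.4% and 5.20% held them. None of the members' windows held CCGGAAGT or TGAGTCA. The letters AGGAAG were found once in the window of Dusp6, once in that of Dusp5, once at or after the second start of Etv5, and at 2 places in that of Spred2. A match describes the letters and is not a binding site. The 250 bases upstream of Dusp6 and Spry1, which rose in shOSGEP#1, and of Spred2, which fell in shOSGEP#2, are shown 5′ to 3′ on the plus strand, with AGGAAG or its reverse complement in capitals. They lie at chr10:99262981-99263230, chr3:37639697-37639946 and chr11:19924192-19924441.
Dusp6: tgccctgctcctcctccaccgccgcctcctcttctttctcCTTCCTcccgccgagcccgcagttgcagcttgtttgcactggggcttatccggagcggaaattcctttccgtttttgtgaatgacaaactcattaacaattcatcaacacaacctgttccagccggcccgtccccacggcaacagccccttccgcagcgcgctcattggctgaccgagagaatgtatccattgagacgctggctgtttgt
Spry1: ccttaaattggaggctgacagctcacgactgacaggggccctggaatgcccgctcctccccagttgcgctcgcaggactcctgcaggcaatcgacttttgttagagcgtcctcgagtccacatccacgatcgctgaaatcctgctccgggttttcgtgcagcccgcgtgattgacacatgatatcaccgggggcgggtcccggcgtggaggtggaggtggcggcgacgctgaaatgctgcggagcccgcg
Spred2: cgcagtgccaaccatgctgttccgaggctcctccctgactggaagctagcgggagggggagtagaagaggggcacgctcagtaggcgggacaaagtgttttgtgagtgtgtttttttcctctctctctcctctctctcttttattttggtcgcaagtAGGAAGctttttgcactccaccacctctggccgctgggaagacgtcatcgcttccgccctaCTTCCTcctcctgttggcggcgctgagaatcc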

How the data were processed

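RNA recovered with FLAG-RIG-I was measured in 9 libraries, grouped by the sample labels. The authors made paired-end reads from a stranded total RNA kit and used TrimGalore, STAR (on GRCm39) and Salmon to trim, align and quantify. The deposited values are whole-number counts per gene, not normalized; how Salmon's estimates became whole numbers is not given in the sources used here. CPM were computed on library totals. The members and lists were chosen with earlier results of these data known.

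Differences were tested with edgeR 4.0.16 in R 4.3.3 by the quasi-likelihood test, with TMM factors, the filterByExpr filter and a coefficient per group. Adjusted p are Benjamini-Hochberg values over all 12744 genes tested, with a threshold of 0.01, and SE was derived from each fold change and its F statistic. The fit held 8 libraries; shOSGEP#2 replicate 2 was shown apart for its depth. The replicates come from independent experiments. The threshold follows the study's methods. Alternatives were DESeq2 1.42.0, other scalings and filters, all 9 libraries, only the groups compared, a replicate block, an adjusted p under 0.05 and leaving out each library. The scripts were tested on simulated data.

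Genes named are the 10 members, Osgep, Ddx58, from each other list the genes past the threshold, up to 3 per comparison and direction by size, and the 5 genes most correlated with Dusp6; not every gene that meets this rule is printed. Cyclin D1, the values given for Axl, Met and Pdgfa outside the comparison that named them, and the other markers printed were chosen after their values were seen. Symbols, transcript lengths and codons came from GENCODE annotation of GRCm38, matched by identifier; 22237 of 22396 genes had a symbol. Lengths and codons are those of the longest protein-coding transcript with a complete coding sequence. Intervals are 95% Wilson intervals and the floor is 3 counts, both covering counting error only. Figures and tables used Python 3.11.15, matplotlib 3.10.9, scipy 1.17.1, pandas 2.3.3 and numpy 2.4.6.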

Additional observations from a re-analysis of the deposited data

Results flagged for a closer look

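The same contrast against shCtr gave different effects for the 2 hairpins in 3 members, by the direct edgeR test of shOSGEP#2 against shOSGEP#1 with Benjamini-Hochberg adjustment: Dusp4 at a log2 fold change of -1.67 (adjusted p = 0.00331), Spred1 at -1.07 (adjusted p = 0.00610) and Spred2 at -0.85 (adjusted p = 0.00794). By the same test 4.56% of all 12744 tested genes were lower in shOSGEP#2 and 6.23% were higher. None of the 3 members passed when only the groups compared were fitted (adjusted p = 0.0126, 0.0109 and 0.0327, edgeR).

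Outside the tests, Spry1 had 96.7 CPM in the shallow library of shOSGEP#2 replicate 2, above its level in every control library, where it reached at most 3.12 CPM. Levels in this library were erratic. Of 8297 genes with at least 10 counts projected from the other shOSGEP#2 libraries, 4427 (53.4%) had none. Hbegf had the same 96.7 CPM, beside 8.37 and 5.70 CPM in shOSGEP#2 replicates 1 and 3.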

How the results depend on the processing

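Depth and the number of libraries are among the limits. With 2 deep shOSGEP#2 libraries and 3 in each other group, leaving out a library often moved an adjusted p across 0.01. Values are shares of RIG-I-recovered RNA, and a hairpin and its off-target effects cannot be told apart. Dusp5 had too few counts to be tested, and Etv4 was tested with standard errors of at least 1.02. Of 456 alternative log2 fold changes of the members, 381 kept direction and side of the threshold, 61 lost a call, 10 gained a call and 4 changed sign: Spry2 in shOSGEP#2 against shCtr at -0.18 with all 9 libraries and -0.23 with all 9 libraries in DESeq2, Spred2 in shOSGEP#1 at 0.0179 without shOSGEP#1 replicate 3 (leave-out range from -0.131), and Etv4 in shOSGEP#2 at 0.0621 without shOSGEP#2 replicate 3 (leave-out range from -8.02, where its remaining library held 0 counts). None of these 4 was a call.

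Counts of all genes called are given for shOSGEP#1 against shCtr, shOSGEP#2 against shCtr and shOSGEP#2 against shOSGEP#1, in that order, beside 1232, 1217 and 1375. DESeq2 on 8 libraries called 2401, 2376 and 2542, and an adjusted p under 0.05 called 2797, 2674 and 2952. All 9 libraries gave 0, 0 and 0 in edgeR (620, 1240 and 1325 at an unadjusted p under 0.05) and 122, 350 and 408 in DESeq2. Only the groups compared gave 737 between the hairpins. Without TMM factors, 901 rose and 375 fell in shOSGEP#2 against shCtr. Leaving out each library gave 318 to 1458, 518 to 1471 and 743 to 1504.

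Members called were 4, 3 and 3. All 9 libraries gave 0, 0 and 0 in edgeR (1, 2 and 2 members at an unadjusted p under 0.05) and 0, 1 and 1 in DESeq2. DESeq2 on 8 libraries and an adjusted p under 0.05 each gave 6, 6 and 4, and only the groups compared gave 0 between the hairpins. Leaving out each library gave 0 to 4, 2 to 4 and 0 to 2. The lowest counts in shOSGEP#1 came without shCtr replicate 2 or shOSGEP#1 replicate 2 (0 each) and without shCtr replicate 1 or shOSGEP#1 replicate 1 (1 each); between the hairpins, 0 came without shOSGEP#1 replicate 1 or 2, and 1 without shCtr replicate 2, shOSGEP#2 replicate 1 or shOSGEP#2 replicate 3. The cause was not tested, apart from the fewer samples in such fits.

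The replicate block gave 1380, 1238 and 1393 genes and 3, 3 and 2 members. It lost Etv5 (adjusted p = 0.0127) and Spry4 (0.0155) and gained Spred1 (0.00755) in shOSGEP#1, and lost Spred2 (0.0123) between the hairpins. The labels and library names repeat the numbers between groups and name no shared batch, so the main fit did not pair the libraries. Deviations from the group means correlated between -0.003 and 0.180 over 7 same-number pairs (mean 0.08), beside a mean of -0.04 over 14 other pairs. Such deviations cancel within a group, which ties the 2 means to each other. They therefore cannot decide whether equal numbers mark a shared experiment.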

Other observations

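In the shallow library of shOSGEP#2 replicate 2, some other genes of the ERK pathway lay far above their levels in the deep libraries. Map2k1 was at 1179 CPM, beside 266 and 276 CPM in shOSGEP#2 replicates 1 and 3. Hbegf, the gene of an EGF receptor ligand, was at 96.7 CPM, beside 8.37 and 5.70 CPM, and was the single ligand of 15 with a count. Fgfr3 was at 123.02 CPM, beside 20.2 and 32.6 CPM, and Axl at 152.9 CPM, beside 73.8 and 57.5 CPM. These genes were chosen after their values were seen, and the library holds too few counts for a comparison.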
